A study of Mus musculus with 10 samples.

Results

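The transcripts of 10 T cell receptors that restrain or reinforce antigen signalling were followed in regulatory T (Treg) cells after degradation of Foxp3. Of the 10 genes, 7 encode coinhibitory receptors (Ctla4, Pdcd1, Btla, Lag3, Tigit, Cd96 and Havcr2) and 3 encode costimulatory receptors (Cd28, Icos and Cd226). They were chosen by name for their function, with earlier results of these data known, and all 10 were found among the 55809 genes of the count tables. The set is functional rather than structural. Ctla4, Pdcd1, Btla, Cd28 and Icos are the 5 usually placed in the CD28 family, Tigit, Cd226 and Cd96 are 3 receptors for nectins and nectin-like proteins, Lag3 is related to CD4, and Havcr2 encodes TIM-3.

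Treg cells from spleen and lymph nodes of mice given 5-ph-IAA for 14 days were profiled by bulk RNA sequencing, with 4 libraries from Foxp3-AID ROSA26-WT mice (R26-WT, replicates 1 to 4) and 6 from Foxp3-AID ROSA26-TIR1(F74G) mice (R26-TIR1(F74G), replicates 5 to 10). All 10 libraries carried the Foxp3-AID allele, in which the endogenous Foxp3 gene encodes a degron-tagged Foxp3 together with a ZsGreen reporter and Cre recombinase. R26-TIR1(F74G) mice also carried, at ROSA26, a plant E3 ligase adaptor and mCherry behind a loxP-flanked STOP cassette, so that Cre made in Foxp3-expressing cells switched the ligase on and 5-ph-IAA then marked the Foxp3 fusion for degradation. R26-WT mice received the drug without the ligase. In the study's general sorting method, Treg cells were CD4+ TCRβ+ ZsGreen+ in both genotypes and additionally mCherry+ in R26-TIR1(F74G). The study describes such libraries from both neonatal and adult hemizygous Foxp3-AID/y males. The read files were labelled as male, and the gate, the age and any pooling of mice were not stated for these libraries.

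CD28 delivers the main costimulatory signal to T cells when it binds CD80 or CD86, and CTLA-4 competes for the same ligands and removes them from antigen-presenting cells. ICOS binds ICOS ligand and sustains activated T cells. PD-1, BTLA, LAG-3, TIGIT and TIM-3 carry inhibitory signals, and TIGIT, CD96 and the costimulatory CD226 compete for shared nectin-like ligands such as CD155. Treg cells are known for constitutive expression of CTLA-4, which they use for suppression, and Foxp3 is a forkhead transcription factor long linked to that expression.

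Totals of counted reads ran from 44929734 to 54795718 in R26-WT and from 24158699 to 49333756 in R26-TIR1(F74G). The degraded molecule is a protein, so the Foxp3 transcript does not check the labels: it averaged 8930 ± 2366 normalized counts in the R26-WT libraries (SD, n = 4) against 9401 ± 3415 in the others (SD, n = 6). The summed counts of 5 Treg defining markers (Foxp3, Il2ra, Ikzf2, Cd4 and Cd3e) spanned 103788 to 124271 in R26-WT and 105110 to 122764 in R26-TIR1(F74G). Summed markers of other cells overlapped between the genotypes, at 2572 to 3314 and 2196 to 3248 for 9 CD8 T and NK cell genes with Ncr1 at 0, at 847.1 to 1378 and 753.6 to 1456 for 5 B cell genes, at 1044 to 1768 and 907.9 to 1208 for 4 follicular helper genes, and at 28.8 to 43.0 and 24.8 to 47.2 for 8 myeloid genes with Cd14 and Itgax at 0. Summed counts of 18 proliferation genes did not overlap, at 10169.5 to 14971 in R26-WT and 18093 to 27269 in R26-TIR1(F74G). The part that this shift had in the results on the receptors was not tested. Fewer cells with a transcript and less of it per cell cannot be told apart in bulk RNA.

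Counts were divided by DESeq2 size factors (normalized counts), and genotypes were compared by the DESeq2 Wald test over the 16363 genes that averaged at least 10 counts. Fold changes are log2 of R26-TIR1(F74G) over R26-WT. A gene was called when its Benjamini-Hochberg adjusted p was under 0.05. Of the 10 receptors, 1 was called, Tigit, which was higher in R26-TIR1(F74G). Over all tested genes, 1.74% were called, 1.4% higher and 0.336% lower. Under edgeR's quasi-likelihood test, 0 of the 10 were called, against 0.373% of all genes. At an unadjusted DESeq2 p under 0.05 the count was 4 of the 9 receptors other than Havcr2 (Ctla4, Cd96, Lag3 and Tigit), against 6.86% of all genes. Havcr2 also had such a p but was tested only because of its counts in R26-TIR1(F74G), the group where it was high. Only Lag3 had genotypes whose normalized counts did not overlap, a state that 2.37% of all genes shared. With the trend of counts on gene length removed, Lag3 overlapped too. The median fold change of the 7 coinhibitory genes was 0.12 and that of the 3 costimulatory genes was −0.15, with a median over all genes of 0.00063. The coinhibitory median counts Havcr2, and without that gene it would lie between Btla (0.081) and Pdcd1 (0.12).

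**Figure D1:**
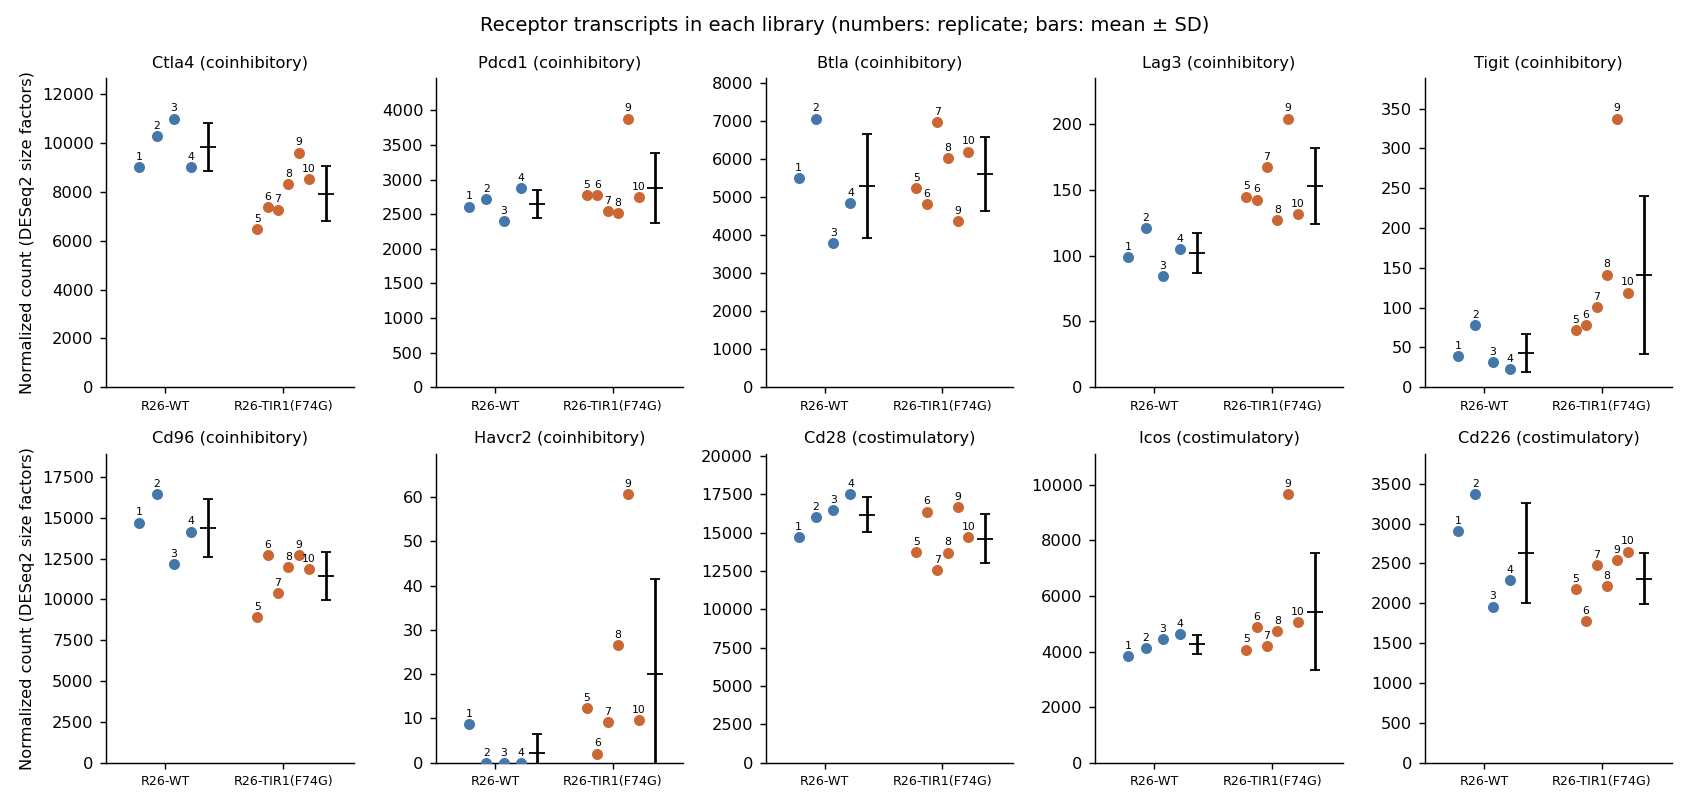
Normalized count (vertical axes, DESeq2 size factors, each from 0) of the 10 receptor genes in 4 R26-WT and 6 R26-TIR1(F74G) libraries, 1 point per library with its replicate number and bars for mean ± SD. Replicate 9 is the highest R26-TIR1(F74G) library for 8 of the 10 genes, and Lag3 is the gene with no overlap between genotypes. With the trend of counts on gene length removed, Lag3 overlaps too.

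The sequences upstream of Tigit, the 1 called receptor, and of Ctla4, the receptor most closely tied to Treg function, are shown because the degraded protein is a forkhead factor. Each run is the 250 bases before the RefSeq transcription start (GRCm38.p6), at chr16:43664185-43664434 on the minus strand for Tigit and chr1:60908775-60909024 on the plus strand for Ctla4, and capitals mark the forkhead core TGTTT or its reverse complement AAACA.
Tigit: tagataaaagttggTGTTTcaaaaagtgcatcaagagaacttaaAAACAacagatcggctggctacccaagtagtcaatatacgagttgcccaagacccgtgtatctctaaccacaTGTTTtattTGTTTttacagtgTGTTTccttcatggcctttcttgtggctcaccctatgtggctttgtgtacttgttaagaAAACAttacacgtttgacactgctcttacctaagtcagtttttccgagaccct
Ctla4: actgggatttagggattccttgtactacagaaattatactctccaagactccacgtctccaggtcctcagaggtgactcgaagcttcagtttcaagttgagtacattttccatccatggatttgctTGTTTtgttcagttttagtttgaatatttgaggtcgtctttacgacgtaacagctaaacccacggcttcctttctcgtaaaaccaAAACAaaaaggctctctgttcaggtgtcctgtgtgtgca
The core was matched 6 times upstream of Tigit and 2 times upstream of Ctla4. Btla and Cd96 had 1 match each, and Pdcd1 and Havcr2 had 0. Promoter sequences of 6 of the 10 genes were at hand, and those of Cd28, Icos, Lag3 and Cd226 were not used here. Of 32851 mouse promoter windows of this length, 46.4% held the core at least once and 0.399% held it 6 or more times, a number picked after the Tigit window was read. The longer forkhead motif TGTTTAC, which contains the core, was in 0 of the 6 windows and in 3.17% of all. The NFAT core GGAAA, in 55.6% of all windows on either strand, matched 2 times upstream of Tigit and 1 time upstream of Ctla4, and the AP-1 motif TGANTCA, in 6.75%, matched neither. These matches describe letters in a window and are not binding sites.

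Ctla4 lies at chr1:60926159-60954991 (GRCm39, plus strand) between the 2 costimulatory genes of the set, Cd28 (chr1:60755959-60812518) and Icos (chr1:61017086-61039479), with 113.6 kb between Cd28 and Ctla4 and 62.1 kb between Ctla4 and Icos. None of these 3 neighbours was called. Ctla4 had 9021, 10284, 11000.1 and 9023 normalized counts in R26-WT replicates 1 to 4. In R26-TIR1(F74G) it had 6466, 7361, 7276, 8311, 9610.4 and 8537 in replicates 5 to 10. Of these 6 libraries, 5 lay below all 4 R26-WT libraries, and replicate 9 lay among them. With the trend of counts on gene length removed, replicate 10 (3743 per kb of exon) also lay above R26-WT replicate 4 (3651). The means were 9832 ± 980 (SD, n = 4) and 7927 ± 1116 (SD, n = 6), a fold change of −0.31 (SE 0.13, 95% interval −0.57 to −0.048, DESeq2 adjusted p = 0.448, edgeR adjusted p = 0.544). Ctla4 was thus not called, and the whole interval lay below 0 before adjustment over all genes. The counts do not separate full-length from soluble CTLA-4 transcripts.

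Cd28 ranged from 14721 to 17498 normalized counts in R26-WT, and in R26-TIR1(F74G) had a lowest of 12549, a median of 14214 and a highest of 16648. In R26-TIR1(F74G), 4 libraries were below all R26-WT libraries. With the length trend removed, replicate 10, among these 4, lay above R26-WT replicate 1 (2393 against 2283 per kb). The fold change was −0.15 (SE 0.11, 95% interval −0.37 to 0.077, DESeq2 adjusted p = 0.99996). The fold change of Icos had the opposite sign, a contrast that was not tested. It had 3827, 4127, 4457 and 4617 normalized counts in R26-WT and 4076, 4875, 4190.4, 4731, 9657 and 5051 in R26-TIR1(F74G) replicates 5 to 10. Replicate 9 held 2.11 times the mean of the other 5 libraries of its genotype, whose range overlapped R26-WT. The Icos fold change was 0.35 (SE 0.23, 95% interval −0.10 to 0.81, DESeq2 adjusted p = 0.99996), and 0.11 without replicate 9.

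Tigit (chr16:43469230-43484509, GRCm39, minus strand) encodes the inhibitory receptor that competes with CD226 for CD155. It was a low transcript in these cells, with raw counts of 49, 79, 39 and 27 in R26-WT and 64, 76, 109, 80, 312 and 137 in R26-TIR1(F74G). Normalized counts were 39.0, 77.7, 31.7 and 22.8 in R26-WT replicates 1 to 4. In R26-TIR1(F74G) replicates 5 to 10 they were 71.4, 78.1, 100.9, 141.5, 337.4 and 118.9. Of the 6 R26-TIR1(F74G) libraries, 5 lay above all R26-WT libraries, and replicate 5 lay below R26-WT replicate 2. With the length trend removed, replicate 6 (78.6 per kb) also lay below R26-WT replicate 2 (95.5). Tigit rose from 42.8 ± 24.2 (SD, n = 4) to 141.4 ± 99.5 (SD, n = 6), a fold change of 1.73 (SE 0.45, 95% interval 0.85 to 2.61, DESeq2 adjusted p = 0.0102).

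The Tigit call rested on the method and on single R26-WT libraries. Its adjusted p was 0.245 by edgeR and 0.195 by limma voom with quality weights, at fold changes of 1.73 and 1.70. Without R26-WT replicate 1, 3 or 4 the DESeq2 adjusted p was 0.0594, 0.0828 and 0.0984. Replicate 9 held 3.30 times the mean of the other 5 R26-TIR1(F74G) libraries, and without it the fold change was 1.26 (SE 0.35, DESeq2 adjusted p = 0.0269). The B cell marker Cd22 was at 5.07 to 15.5 normalized counts in R26-WT, at 272.5 in replicate 9 and at 23.6 to 51.2 in the other 5, a fold change of 2.68 (SE 0.63, DESeq2 adjusted p = 0.00266, 0.230 by edgeR), while those of Cd79a and Cd79b were −0.24 and −0.33 and were not called. The sum of 5 B cell markers was 1456 in replicate 9 against 753.6 to 1057 in the other 5 and 847.1 to 1378 in R26-WT. Without Cd22 it was 1183 in replicate 9, inside the R26-WT range of 832.4 to 1362. The sum of CD8 T and NK cell markers was also the highest of the genotype, at 3248, beside an R26-WT maximum of 3314. The part of other cells in the Tigit reads was not tested.

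The other nectin-binding receptors, Cd226 and Cd96, were not called. Cd226 (chromosome 18), the activating counterpart, had 1957 to 3366 normalized counts in R26-WT and a lowest, median and highest of 1777, 2350 and 2649 in R26-TIR1(F74G). Its genotypes overlapped, with a fold change of −0.19 (SE 0.18, 95% interval −0.53 to 0.16, DESeq2 adjusted p = 0.99996), and of −0.046 without R26-WT replicate 2. Cd96 (chr16:45856020-45940614, minus strand), a receptor for CD155 found on T and NK cells, had 14697, 16423, 12159.9 and 14152 in R26-WT and 8937, 12701, 10398, 11989, 12711 and 11864 in R26-TIR1(F74G). In R26-TIR1(F74G), 4 libraries lay below all R26-WT libraries, and R26-WT replicate 3 was below replicates 6 and 9. With the length trend removed, only R26-TIR1(F74G) replicate 5 (4236 per kb) lay below R26-WT replicate 3 (5082). The means were 14358 ± 1756 (SD, n = 4) and 11433 ± 1486 (SD, n = 6), at a fold change of −0.33 (SE 0.14, 95% interval −0.60 to −0.060, DESeq2 adjusted p = 0.393, edgeR adjusted p = 0.479).

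Lag3 (chr6:124881324-124888668, minus strand) encodes an inhibitory receptor that binds MHC class II. It had 98.7, 121.0, 84.6 and 104.9 normalized counts in R26-WT and 145.1, 142.8, 167.6, 127.4, 204.4 and 132.0 in R26-TIR1(F74G). Every R26-TIR1(F74G) library was above every R26-WT library, by the narrow gap between 121.0 and 127.4. With the length trend removed the genotypes overlapped, with R26-WT replicate 2 at 62.5 per kb above R26-TIR1(F74G) replicate 8 at 61.3. The means were 102.3 ± 15.1 (SD, n = 4) and 153.2 ± 28.7 (SD, n = 6), a fold change of 0.59 (SE 0.19, 95% interval 0.22 to 0.96) with a DESeq2 adjusted p of 0.0876 and an edgeR adjusted p of 0.320, so Lag3 was not called.

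Havcr2 (chr11:46345762-46372082, plus strand) encodes TIM-3, found on exhausted effector T cells and on activated Treg cells. It was barely detected. Raw counts were 11, 0, 0 and 0 in R26-WT and 11, 2, 10, 15, 56 and 11 in R26-TIR1(F74G), of which replicate 9 held the 56. In R26-TIR1(F74G), normalized counts were 12.3, 2.05, 9.26, 26.5, 60.6 and 9.55, against 8.76 in R26-WT replicate 1. The gene passed the filter through the R26-TIR1(F74G) libraries and would not pass without replicate 9. The fitted fold change of 3.16 had a wide error (SE 1.09, 95% interval 1.03 to 5.30, DESeq2 adjusted p = 0.142, edgeR adjusted p = 0.499). Without R26-WT replicate 1 the remaining R26-WT libraries were all at 0 and the DESeq2 adjusted p was 4.79e-04, so a single library with 11 reads decided that call.

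Pdcd1 and Btla were not called, and both intervals included 0. Pdcd1 (chr1:93966027-93980278, minus strand), which encodes PD-1, had 2398 to 2874 normalized counts in R26-WT and a lowest, median and highest of 2519, 2761 and 3881 in R26-TIR1(F74G). The highest was replicate 9, and the other 5 lay between 2519 and 2779. The fold change was 0.12 (SE 0.14, 95% interval −0.16 to 0.40, DESeq2 adjusted p = 0.99996), and 0.016 without replicate 9. Btla (chr16:45044678-45078033, plus strand), the receptor for HVEM, had 3778 to 7049 in R26-WT and a lowest, median and highest of 4363, 5620.1 and 6958 in R26-TIR1(F74G). Btla was the 1 receptor that was lowest in replicate 9, and its fold change of 0.081 (SE 0.19, 95% interval −0.29 to 0.46) turned to −0.049 without R26-WT replicate 3.

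**Figure D2:**
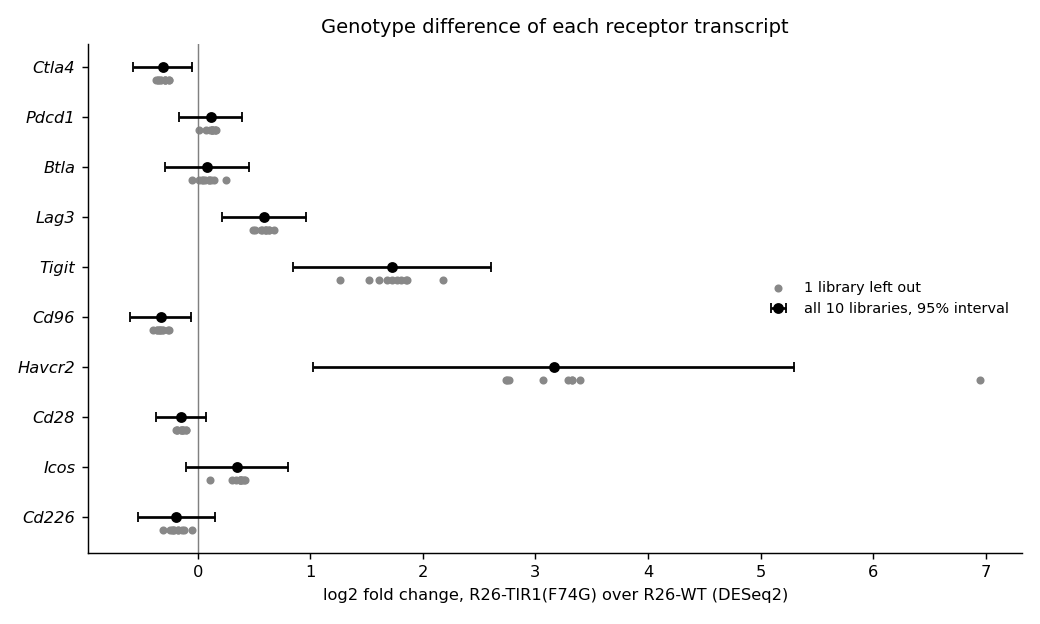
Fold change of each receptor gene (horizontal axis, log2 of R26-TIR1(F74G) over R26-WT, DESeq2) with its 95% interval from all 10 libraries (black) and the values with 1 library left out (grey). The intervals of Ctla4, Cd96, Lag3, Tigit and Havcr2 lie off 0, and the grey Havcr2 point at 6.95 comes from R26-WT libraries all at 0 and is no bound. Havcr2 was tested only because of its counts in R26-TIR1(F74G).

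Levels between genes were compared as normalized counts per kb of exon. In R26-WT the order from the top was Cd96 (6574 ± 804.1 per kb, SD, n = 4), Ctla4 (4220 ± 421), Cd28 (2642 ± 188), Btla (1557 ± 404), Pdcd1 (1371 ± 103), Icos (1241 ± 103), Cd226 (537.5 ± 128), Lag3 (48.5 ± 7.15), Tigit (46.6 ± 26.3) and Havcr2 (0.805 ± 1.61). Btla and Pdcd1, Pdcd1 and Icos, and Lag3 and Tigit overlapped, and the other neighbours in the order did not. The set thus ran from Cd96 down to Havcr2, which was at 0 in 3 of 4 libraries.

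In R26-TIR1(F74G), Cd96 (5235 ± 680.2 per kb, SD, n = 6), Ctla4 (3402 ± 479), Cd28 (2388 ± 265) and Btla (1647 ± 283) again led. Icos (1583 ± 614) stood before Pdcd1 (1487 ± 262), and Tigit (153.8 ± 108) before Lag3 (72.6 ± 13.6), with Cd226 (471.8 ± 65.3) above them and Havcr2 (7.36 ± 7.87) last. Both exchanged pairs overlapped between libraries, as did Cd96 and Ctla4, Btla and Icos, and Cd226 and Tigit. The overlaps of Cd96 with Ctla4 and of Cd226 with Tigit came from replicate 9, where Ctla4 and Tigit reached 4125 and 367.2 per kb. The order of Icos and Pdcd1 also rested on that library, since the means of the other 5 were 1337 ± 125 for Icos and 1382 ± 67.3 for Pdcd1.

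**Figure D3:**
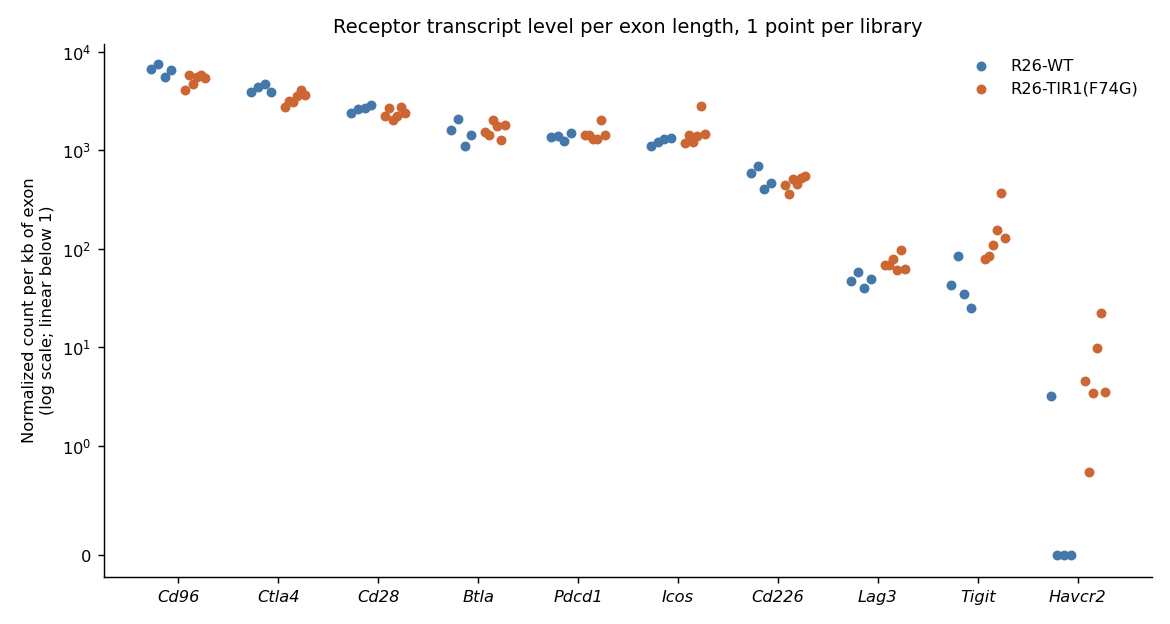
Normalized count per kb of exon (vertical axis, log scale, linear below 1) for the 10 receptor genes in the order of their R26-WT means, 1 point per library. Cd96, Ctla4 and Cd28 lie highest in both genotypes, Lag3 and Tigit lie far below Cd226 in R26-WT, and Havcr2 is at 0 in 3 R26-WT libraries.

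Opposed receptors that share ligands, or neighbours of one locus, were also set against each other within each library, which removes the size factor. These ratios of counts per kb are given as descriptions with no test. Ctla4 over Cd28 ran from 1.35 to 1.75 in R26-WT and from 1.18 to 1.59 in R26-TIR1(F74G), with log2 means of 0.67 ± 0.16 and 0.51 ± 0.18 (SD), and the genotypes overlapped. Icos over Cd28 was 0.461 to 0.483 in R26-WT (log2 −1.09 ± 0.030) and was higher in every R26-TIR1(F74G) library, at 0.531 to 1.04 (log2 −0.65 ± 0.36). Without replicate 9 the log2 difference of Icos over Cd28 went from 0.44 to 0.29. With the trend of counts on gene length removed, a setting added after the data were seen, Icos over Cd28 spanned 0.422 to 0.518 in R26-WT and 0.496 to 0.947 in R26-TIR1(F74G), so that replicate 6 lay below R26-WT replicate 2 and the genotypes overlapped. Tigit over Cd226 did not overlap with the trend kept or removed, and with it kept lay at 0.0531 to 0.123 in R26-WT (log2 −3.65 ± 0.51) and 0.174 to 0.707 in R26-TIR1(F74G) (log2 −1.82 ± 0.72).

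**Figure D4:**
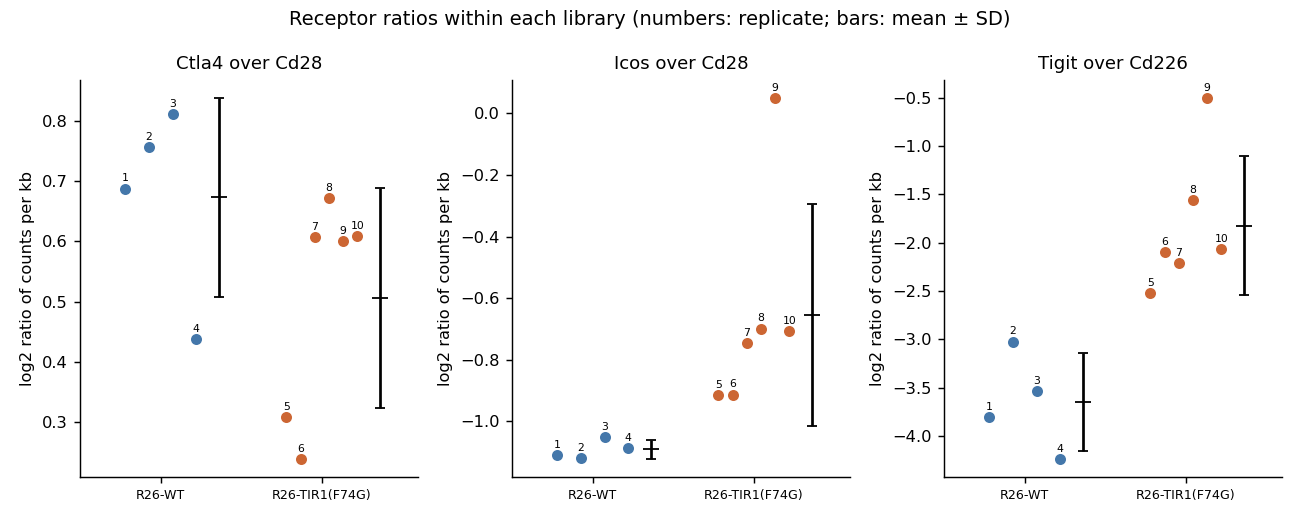
Log2 ratio of counts per kb (vertical axes) for Ctla4 over Cd28, Icos over Cd28 and Tigit over Cd226, 1 point per library with its replicate number and bars for mean ± SD. Icos over Cd28 and Tigit over Cd226 are higher in all 6 R26-TIR1(F74G) libraries than in the 4 R26-WT libraries, and replicate 9 is the highest of both. With the length trend removed, Icos over Cd28 is higher in 5 of the 6.

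Replicate 9 set much of the spread within R26-TIR1(F74G). It was the highest library of its genotype for 8 of the 10 receptors, and for 3 it stood at least 2 times above the mean of the other 5, which were Icos (2.11), Tigit (3.30) and Havcr2 (5.08). The same ratio was 1.45 for Pdcd1, 1.43 for Lag3 and 1.27 for Ctla4. Across the 10 libraries, after subtracting genotype means from log2 normalized counts, Pdcd1 was most like Icos (Pearson r = 0.87), but r was 0.15 without replicate 9. Ctla4 was most like Tigit among the receptors (r = 0.75), with Icos next (r = 0.74), and without replicate 9 the order turned (r = 0.56 for Tigit and 0.61 for Icos), and Btla and Cd226 were most like each other (r = 0.73, 0.94 without it). Among 12609 other genes with a mean of at least 50 normalized counts, 3 genes most like Ctla4 were named. They were Snhg15 (r = 0.94), a noncoding host of small nucleolar RNAs, Ldlrad4 (r = 0.93) and Bicd1 (r = 0.92), a dynein adaptor. Without replicate 9, r was 0.91, 0.88 and 0.86. These 3 were picked as the highest of 12609 correlations, so their height alone is no sign of shared regulation. These values are descriptions over 10 libraries that differed in depth.

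The ligands of these receptors, their signalling and trafficking partners, other coreceptors and transcription factors gave 4 called genes of 71 tested, all higher in R26-TIR1(F74G), and 1 by edgeR. The shares over all tested genes were 1.74% by DESeq2 and 0.373% by edgeR, and the lists were chosen with earlier results known. Of the ligands, 12 of 18 were tested and 0 were called, with a median fold change of −0.058 and 2 genes (Lgals3 and Icosl) at an unadjusted p under 0.05. Lgals3, which encodes galectin-3, a reported ligand of LAG-3, had 27.5 ± 24.7 normalized counts in R26-WT and 168.2 ± 165.1 in R26-TIR1(F74G), with a fold change of 2.61 (SE 0.84, DESeq2 adjusted p = 0.0868). Replicate 9 held 498.6 against 50.2 to 138.0 in the other 5, and without it the fold change was 1.90 (DESeq2 adjusted p = 0.0597). Icosl, the ligand of ICOS, which was picked after its value was seen, had a fold change of 0.50 (SE 0.21, DESeq2 adjusted p = 0.382, and 0.0399 without R26-TIR1(F74G) replicate 9). Among ligands with a mean of at least 50 normalized counts, the lowest fold change was that of Pdcd1lg2, the PD-L2 gene, at −0.28 (SE 0.18, DESeq2 adjusted p = 0.99996), and at −0.15 without R26-WT replicate 3. Of the partners that carry the receptors' signals or move them through the cell, 24 of 24 were tested, 0 were called and 0 had an unadjusted p under 0.05. Their fold changes ran from −0.18 for Sh2d1a, which encodes the adaptor SAP, to 0.25 for Pik3cd, a catalytic subunit of phosphoinositide 3-kinase, around a median of 0.032. With 1 library left out, Sh2d1a spanned −0.30 to −0.11 and Pik3cd −0.0024 to 0.52.

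Of the other coreceptors, 16 of 17 were tested, 1 was called higher and 0 were called lower, with a median fold change of −0.15. Fold changes were below 0 for 14 and above 0 for 2 of the 16, and above 0 for 50.1% of all tested genes. The called gene was Slamf6, a homophilic receptor of the SLAM family. Its normalized counts were 16251, 15724, 16287 and 16431 in R26-WT, with a lowest of 19863 and a highest of 26348 in R26-TIR1(F74G), again replicate 9. The fold change was 0.43 (SE 0.10, DESeq2 adjusted p = 0.00411). The call was lost with edgeR, at an adjusted p of 0.103, with limma voom, at 0.112, and with the length trend removed, at 0.577. Among coreceptors with a mean of at least 50 normalized counts, Cd200r1, the inhibitory receptor for CD200, had the lowest value, −0.27 (SE 0.14, DESeq2 adjusted p = 0.746).

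Among 19 transcription factors tied to coreceptor expression, 3 were called higher and 0 lower, with a median of 0.15. Over all tested genes, 1.4% were called higher and 0.336% lower. Eomes, a T-box factor of effector and memory T cells, rose from 108.9 ± 29.8 (SD, n = 4) to 301.7 ± 63.1 (SD, n = 6), without overlap, at a fold change of 1.47 (SE 0.23, DESeq2 adjusted p = 4.54e-08), and edgeR gave an adjusted p of 0.0161. Eomes is also on the list of CD8 T and NK cell markers, whose sum overlapped between genotypes. Tox2, of the TOX family linked to exhaustion, rose from 116.1 ± 63.2 to 315.9 ± 171.2, at 1.44 (SE 0.40, DESeq2 adjusted p = 0.0236), with its highest value of 640.3 in replicate 9. Neither Tox2 nor the third factor, Tcf7, was called by edgeR (adjusted p = 0.289 and 0.121). The Tox2 adjusted p was 0.0842 with a surrogate variable, 0.0858 without replicate 9, and 0.175, 0.175 and 0.0571 without R26-WT replicate 3, R26-WT replicate 4 or R26-TIR1(F74G) replicate 8. Tcf7, which encodes TCF-1 of naive and stem-like T cells, rose from 57875 ± 7140 to 77714 ± 7248, at 0.43 (SE 0.12, DESeq2 adjusted p = 0.0257), with no overlap. The Tcf7 call was lost without any 1 of R26-WT replicates 3 and 4 and R26-TIR1(F74G) replicates 5, 6, 7, 8 and 10, at adjusted p values between 0.0517 and 0.216. The lowest of the list, at a mean of at least 50 normalized counts, was Nr4a2, an orphan nuclear receptor induced by T cell receptor signalling, at −0.51 (SE 0.33, DESeq2 adjusted p = 0.99996), and at −0.16 without R26-WT replicate 2 and −0.28 by limma voom.

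**Figure D5:**
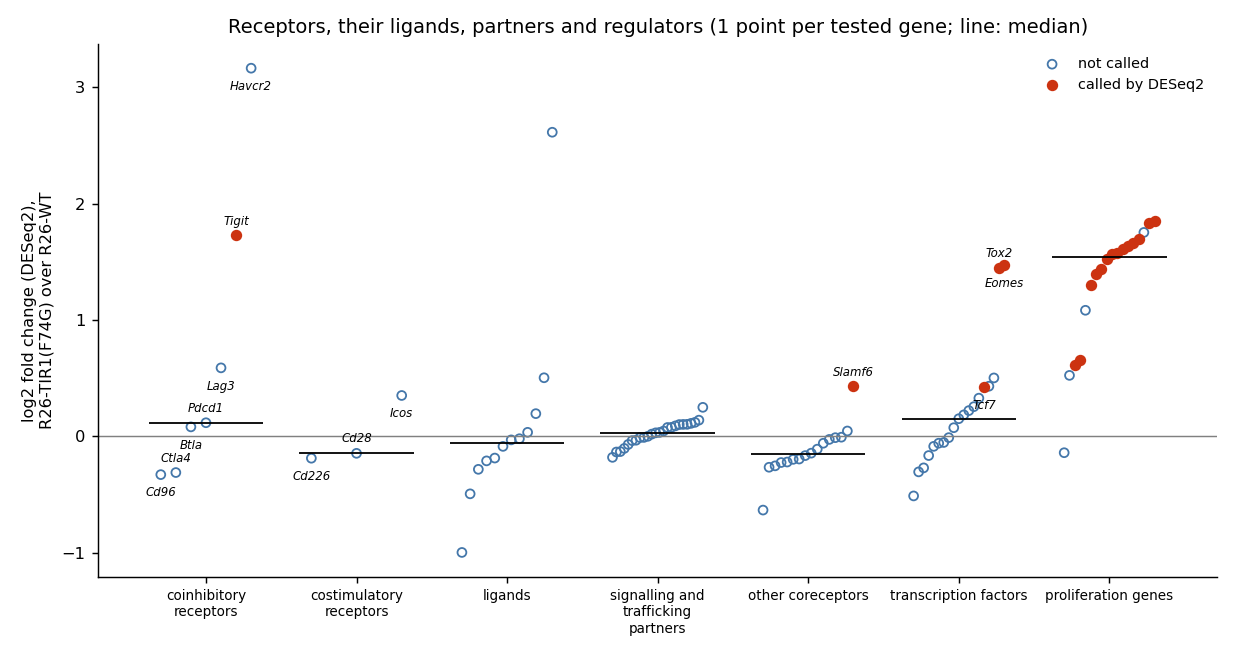
Log2 fold change (vertical axis, DESeq2, R26-TIR1(F74G) over R26-WT) of every tested gene in the receptor lists and the companion lists, with filled points for called genes and a line at each list's median. Tigit, Slamf6, Tox2, Eomes and Tcf7 are the called genes in the receptor and companion lists, and in the proliferation list 14 of 18 were called.

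Activation state was read from 2 further lists. Of 11 genes of activated Treg cells, 0 were called higher and 1 lower, Tnfrsf9 (4-1BB), at −0.49 (SE 0.11, DESeq2 adjusted p = 5.65e-04, 0.0510 by edgeR). Of 8 genes of resting Treg cells, 1 was called higher, the survival gene Bcl2, at 0.37 (SE 0.11, DESeq2 adjusted p = 0.0431, 0.192 by edgeR), a call kept in 4 of 17 alternatives. Their summed counts overlapped between genotypes, at 12179.6 to 14497 and 10243 to 13859 for the activated list and 371571 to 379528 and 351124 to 398771 for the resting list. The activated sum largely followed Tnfrsf9, which averaged 7734 of 13719 in R26-WT and 5497 of 12037 in R26-TIR1(F74G). The mean log2 normalized count of the activated list was 9.30 in replicate 9, where Icos, Tigit, Havcr2 and Pdcd1 were highest too, and 7.99 to 8.68 in the other 9 libraries. The part of activation genes in those receptor values was not tested. In the proliferation list, chosen with earlier results of these data known, 14 of 18 genes were called higher and 0 lower, at a median fold change of 1.54. Over all tested genes 1.4% were called higher. By edgeR 7 of the 18 were called, against 0.373% of all genes.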

How the data were processed

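Bulk RNA of Treg cells was amplified with SMART-Seq v4 without molecular identifiers. The deposited files hold raw read counts per gene for each library, and the authors made them, per the file headers, with featureCounts 2.1.1 on GENCODE mouse release 30 (GRCm39) at a mapping quality of at least 30, with no strand option. The labels name Bowtie2 among the tools and the study's methods name STAR for RNA. Counts were compared with DESeq2 1.42.0 (Wald test, genotype only, mean count of at least 10, Benjamini-Hochberg adjusted p under 0.05), as in the study's methods, in R 4.3.3. Alternatives were edgeR 4.0.16, limma 3.58.1 voom with quality weights, TMM factors, no filter, a mean count of at least 50, 1 surrogate variable (sva 3.50.0), removal of a length trend (loess span 0.5), and each library left out in turn. The ratios were also taken with the length trend removed. Counts per kb used the exon length given in the files. Scripts were tested on simulated data. All 21 pairs of replicates differed beyond counting noise. Nothing says that the libraries came from separate mice, so p-values measure the spread between libraries. The receptors and all lists were chosen with earlier results of these data known. From each companion list, up to 4 called genes by adjusted p and the highest and lowest fold change at a mean normalized count of at least 50 were named, with 3 genes most like Ctla4.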

Additional observations from a re-analysis of the deposited data

Results flagged for a closer look

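In 42 groups of values, 7 had a library at one end with a gap to its nearest neighbour above the Dixon limit, given here as the gap over the group's range. For independent normal values chance gives about 2.1. The groups were not independent, since Icos counts also enter the ratio of Icos over Cd28, and Havcr2 was mostly at 0 in R26-WT. The 2.1 is therefore no exact expectation. Of the 7, 4 were R26-TIR1(F74G) replicate 9. Its Icos count of 9657 lay above the 4076 to 5051 of the other libraries (0.825), its Pdcd1 count of 3881 above 2519 to 2779 (0.809), its Tigit count of 337.4 above 71.4 to 141.5 (0.737), and its log2 ratio of Icos over Cd28 of 0.050 above −0.91 to −0.70 (0.776). Havcr2 was at 8.76 in R26-WT replicate 1 and at 0 in the other 3 libraries (1). The summed follicular helper markers were 907.9 in R26-TIR1(F74G) replicate 6 and 1139 to 1208 in the others (0.771). The summed myeloid markers were 43.0 in R26-WT replicate 1 and 28.8 to 30.9 in the others (0.847).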

How the results depend on the processing

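No paired analysis was possible because the genotypes share no replicate number. The count of called genes went from 284 to 61 with edgeR, 80 with limma voom, and 544 (369 higher, 175 lower) with a surrogate variable, and to between 187 and 346 with 1 library left out. The count of called receptors went from 1 to 0 with edgeR and with limma voom and lay between 0 and 1 with 1 library left out, at 0 without R26-WT replicate 3 or 4. Without R26-WT replicate 1 the 1 called receptor was Havcr2 and not Tigit. The count of called companion genes went from 4 to 1 with edgeR and with limma voom, and lay between 2 and 4 with 1 library left out. The cause of these shifts was not tested. With 1 library left out, the log2 difference between genotypes lay within −0.25 to −0.11 for Ctla4 over Cd28, 0.29 to 0.49 for Icos over Cd28 and 1.56 to 2.03 for Tigit over Cd226, and with the length trend removed these were −0.095, 0.48 and 1.91. With 1 library left out, Btla spanned −0.049 to 0.25, Pik3cd −0.0024 to 0.52 and Foxp3 −0.15 to 0.24. The sign reversed for Btla (−0.049) and Foxp3 (−0.034) without R26-WT replicate 3, for Foxp3 without R26-WT replicate 4 (−0.016) or R26-TIR1(F74G) replicate 7 (−0.15), and for Pik3cd without R26-TIR1(F74G) replicate 7 (−0.0024). Tigit kept its sign in all 17 alternatives and its call in 12, and Ctla4, Cd96 and Lag3 kept their sign in all 17 with 0 calls. Havcr2 had no value at a mean count of at least 50 or without R26-TIR1(F74G) replicate 9. Counts were lowest for Tigit, Lag3 and Havcr2. The smallest library had 24158699 counted reads.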
